A study of Mus musculus with 10 samples.

Results

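Gtf3c1 regions in untreated and KCl-depolarized mouse cortical neurons were compared on chromosomes 1 to 19. Gtf3c1 is the largest subunit of TFIIIC. All regions that the authors listed for the antibody on these chromosomes were taken, 66174 untreated and 57653 with KCl, together 123827 of the 651012 regions in the series' 8 lists. A region present in both lists (at least 1 bp in common) was called shared, and the others KCl-only or untreated-only. The cultures held primary cortical neurons, taken from the C57BL/6J strain and kept for 6 days in vitro, with no genetic alteration given in the labels. Both groups spent a night in medium with serum reduced to 3%, after which one was left untreated and the other received 50 mM KCl for 45 min. Chromatin immunoprecipitation with sequencing (ChIP-seq) was done for Gtf3c1, for the RNA polymerase III subunit Rpc155 and for the histone marks H3K4me1 and H3K27ac. The series' design text states 3 biological replicates, but each condition has 1 list, so no difference below has a replicate check and no test between conditions was made. Depth is unknown from the lists, and a bulk culture does not tell more cells carrying the protein from more protein per cell.

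TFIIIC recognises the internal promoter of tRNA genes and recruits TFIIIB, which in turn brings RNA polymerase III. It is also known to occupy many places without polymerase III. In neurons, KCl opens voltage-gated calcium channels, and calcium signalling to the factors CREB and SRF switches on immediate-early genes within minutes. These genes encode transcription factors such as Fos and Egr1 and effectors such as the phosphatase Dusp1, whereas delayed genes such as Bdnf follow later.

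The label of cortical neurons was checked with H3K27ac, a mark of active promoters and enhancers, within 1 kb of an annotated start of marker genes. All 13 markers of glutamatergic cortical neurons (among them Neurod2 and Tbr1) had H3K27ac in both conditions. GABAergic markers had it at 9 of 13 genes untreated and 11 with KCl, and astrocyte markers at 6 and 5 of 9. Of 6 neural progenitor markers, 2 had it untreated and 4 with KCl (Eomes, Hes5, Nes and Sox2). Of 6 endothelial markers only Cdh5 had it, untreated, and of 8 non-neural markers only Apoa1, in both lists. None of the 7 microglial markers was marked there in either list, and of 8 oligodendrocyte-lineage markers only Cnp was, with KCl. Away from the start, H3K27ac did cover part of Mog (9.77% of its length untreated and 9.35% with KCl) and Cspg4 (3.43% and 5.30%). It also covered 0.589% of Pdgfra untreated. The share of these other cells in the cultures was not tested.

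Promoter sequences are shown first for the immediate-early genes that hold either of 2 motifs known from activity-dependent transcription. The cyclic AMP response element (CRE, TGACGTCA, both strands) is bound by CREB and the CArG box by SRF. Each line gives the 200 bases before an annotated start, from RefSeq on GRCm38.p6, with the motif in capitals. Btg2, an antiproliferative gene, lies on the minus strand and its stretch is chr1:134079156-134079355. Dusp1 encodes a MAP kinase phosphatase (chr17:26508473-26508672, minus strand). Plk2 encodes a polo-like kinase (chr13:110394844-110395043, plus strand). The phosphatase gene Dusp5 (chr19:53528945-53529144, plus strand), Srf itself (chr17:46556163-46556362, minus strand) and Zfp36, the gene of the mRNA-destabilising protein tristetraprolin (chr7:28379229-28379428, minus strand), hold CArG boxes.
Btg2: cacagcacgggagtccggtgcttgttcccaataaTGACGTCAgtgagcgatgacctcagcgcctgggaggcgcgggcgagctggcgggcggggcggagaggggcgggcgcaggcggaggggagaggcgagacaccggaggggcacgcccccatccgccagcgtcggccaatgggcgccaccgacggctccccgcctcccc
Dusp1: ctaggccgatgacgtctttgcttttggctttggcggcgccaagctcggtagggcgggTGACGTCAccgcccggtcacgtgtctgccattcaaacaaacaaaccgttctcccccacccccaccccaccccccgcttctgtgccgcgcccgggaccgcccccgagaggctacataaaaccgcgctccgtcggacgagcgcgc
Plk2: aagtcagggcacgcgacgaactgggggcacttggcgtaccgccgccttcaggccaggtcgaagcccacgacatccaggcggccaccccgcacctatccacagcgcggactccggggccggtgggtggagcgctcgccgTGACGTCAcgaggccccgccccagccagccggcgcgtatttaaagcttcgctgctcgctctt
Dusp5: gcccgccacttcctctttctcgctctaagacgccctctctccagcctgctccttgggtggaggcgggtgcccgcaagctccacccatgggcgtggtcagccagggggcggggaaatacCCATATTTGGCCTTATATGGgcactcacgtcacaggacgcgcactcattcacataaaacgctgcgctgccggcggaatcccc
Srf: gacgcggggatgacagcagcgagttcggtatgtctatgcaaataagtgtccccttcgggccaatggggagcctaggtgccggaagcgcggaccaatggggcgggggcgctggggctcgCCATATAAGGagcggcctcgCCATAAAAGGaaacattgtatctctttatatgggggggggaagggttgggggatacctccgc
Zfp36: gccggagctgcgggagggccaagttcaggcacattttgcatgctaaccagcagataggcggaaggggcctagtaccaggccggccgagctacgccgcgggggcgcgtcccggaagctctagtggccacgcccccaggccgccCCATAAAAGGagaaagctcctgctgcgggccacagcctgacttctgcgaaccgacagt

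Both kinds of promoter included cases with a wider region under KCl. At the Btg2 promoter the untreated region was 382 bp wide and the KCl region 6427 bp. At Dusp1 the widths were 2025 and 5301 bp, and at Plk2 1353 and 2326 bp. The promoter at the start used for Srf had no untreated region and a KCl region of 3334 bp. That start lies inside the annotated gene, of which 34.7% was covered untreated. Dusp5 had none and 787 bp, and Zfp36 had none in either list. The motif therefore occurred with and without a Gtf3c1 region.

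Among the 16457 protein-coding genes with a promoter window (250 bases before to 50 after the start used), 2.40% held the CRE and 1.45% a CArG box. For some genes, among them Srf, Nr4a1 and Npas4, the start used lies inside the annotated gene. Of 33 immediate-early genes with a window, 3 held each. Promoters with a Gtf3c1 region in both lists held the CRE in 4.46% of 4799 genes, those with one under KCl alone in 4.33% of 1664, those with one untreated alone in 2.41% of 913, and those with none in 0.958% of 9081. These groups also differed in base composition, with a median GC content of 63.0%, 62.0%, 60.7% and 50.7%. The part of base composition in the CRE shares was not tested. The tRNA-gene B box (GTTCGANNC, both strands) was in 0.948% of all windows and in none of the immediate-early windows, which says only that these letters are not there.

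About the same length of genome was covered in both conditions, but fewer than 1 in 2 bases were the same. Untreated regions covered 30.98 Mb and KCl regions 29.15 Mb, with 13.36 Mb in both, which was 43.1% of the untreated and 45.8% of the KCl length. The ratio of KCl to untreated length was 0.941, and 1.02 when the untreated list was reduced to the number of regions of the KCl list, so its side of 1 depends on list length. Of the untreated regions, 30195 were shared (45.6%, exact binomial 95% interval 45.3 to 46.0, counting error only) and 35979 were untreated-only. Of the KCl regions, 29472 were shared (51.1%, 50.7 to 51.5) and 28181 were KCl-only. On every chromosome but 11 the untreated list was longer. Chromosome 11 had 4206 untreated and 4225 KCl regions, and the lowest ratio was on chromosome 14, with 2668 and 2061.

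Sharing followed the fold enrichment that the authors' peak caller gave each region. Regions under 3-fold were shared in 25.2% of untreated and 25.9% of KCl cases, and regions of 15-fold or more in 99.3% and in all 565 cases. Between these ends the lists differed. At 5- to 6-fold, 63.0% of 5570 untreated regions (61.7 to 64.2) but 88.5% of 4050 KCl regions (87.5 to 89.5) were shared. So untreated-only regions of middling enrichment were more frequent than KCl-only ones, with 2063 against 465 in that range.

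**Figure D1:**
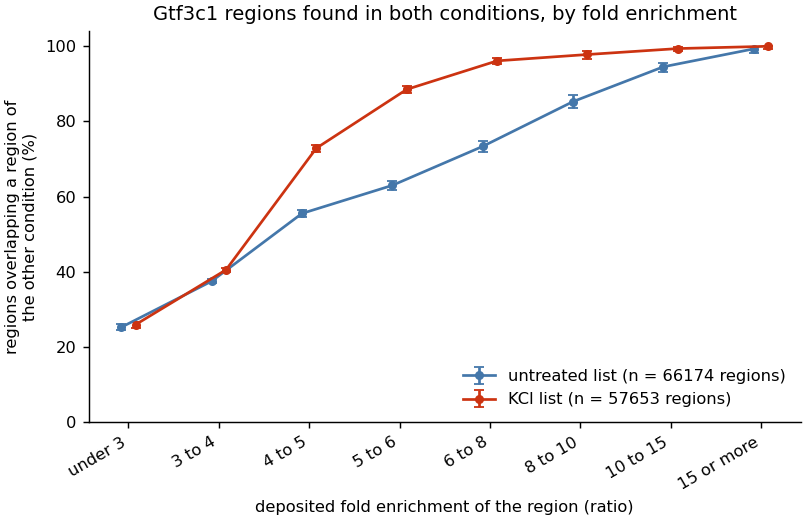
Share of Gtf3c1 regions (%) that overlap a region of the other condition, by the deposited fold enrichment of the region, for the untreated and KCl lists. Bars are exact binomial 95% intervals; both lines start near 25% under 3-fold, and the KCl line lies above the untreated line from 4- to 15-fold.

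KCl regions were more often very wide. The median width was 353 bp untreated and 348 bp with KCl, and shared regions (485 and 462 bp) were wider than untreated-only (293 bp) and KCl-only ones (285 bp). Regions of at least 2 kb numbered 565 untreated and 1110 with KCl, and those of at least 5 kb 14 and 64. A single KCl region spanned 2 or more untreated regions 1963 times, and an untreated region spanned 2 or more KCl regions 1483 times. In the 24816 pairs in which 1 region met 1 region, the typical width hardly differed, with a median log2 ratio (KCl over untreated) of −0.08. Individual pairs did differ, with a 10th percentile of −1.075 and a 90th of 1.004. Of these pairs 13621 were wider untreated and 11150 wider with KCl. Over all 31778 overlapping pairs the summits lay a median of 105 bp apart, and 48.8% were within 100 bp.

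Of the 10 widest KCl regions several lay on immediate-early genes, and of the 10 widest untreated ones none did. With KCl the widest was at Nr4a3, an orphan nuclear receptor gene (chr4:48042473-48057239, 14767 bp), where the untreated list had 7 regions of at most 4598 bp. Others lay at the noncoding RNA Malat1 with 11269 bp, Nr4a1 with 10633 bp and Fosb with 10348 bp. The region over Mir212 and Mir132 had 10259 bp, that over Acd, Carmil2 and Pard6a 9931 bp, Scd2 8987 bp, Npas4 8898 bp and Nfil3 8581 bp.

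In untreated neurons the widest region lay over the microRNA gene Mir124a-1 (chr14:64586620-64596568, 9949 bp), and with KCl it was met by 5 regions of 8985 bp in all, the widest of 3357 bp. Eef2, the translation elongation factor 2 gene, had 1 region of 7054 bp untreated and 4 of together 5900 bp with KCl. At Mir137 1 region of 5605 bp (15.8-fold) stood against 3 of together 4765 bp (up to 21.4-fold). So these places were covered in both conditions and divided into more regions with KCl. At Nfix, a nuclear factor I gene, width differed little, 5349 and 5271 bp, while the fold enrichment was 38.9 untreated and 56.3 with KCl.

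KCl-only and untreated-only regions lay in different places. Of the KCl-only regions, 74.2% (73.7 to 74.7) lay in gene bodies, 15.5% (15.1 to 15.9) were intergenic and 7.95% were within 1 kb of a known start. Body regions leave out those within 1 kb of a known start or end. Start and strand were known for 79.6% of protein-coding genes. Regions near the ends of the other genes therefore count as body or intergenic. For untreated-only regions the shares were 59.9% (59.4 to 60.4), 32.7% (32.2 to 33.2) and 4.96%, and shared regions were at promoters in 23.1% and 22.8% of cases. KCl-only regions also lay nearer to a region of the other list, at a median of 2266 bp against 6007 bp. For KCl-only regions the other list was the longer one. The part of list length and of location in these distances was not tested. In genes of known strand, 20.7% of KCl-only body regions were in the first of 5 equal parts and 21.5% in the last. Untreated-only regions went from 22.2% in the first to 18.6% in the last.

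Of the 10 KCl-only regions of highest fold 7 had their summit in a protein-coding gene, and of the 10 such untreated-only regions 6 did. Among the KCl-only ones, Igfbp2 (14.0-fold), which encodes an insulin-like growth factor binding protein, Crem (13.3-fold), a CREB-family repressor gene, Sox6 (13.3-fold) and Bcl6 (10.4-fold) held the summit. Of the 3 outside genes, 1 lay 14114 bp from Btg2 (10.2-fold) and 1 lay 9984 bp from Fosb (9.51-fold). The highest untreated-only region (23.5-fold) was 256030 bp from the nearest protein-coding gene, S1pr1. It was followed by Mad1l1 (17.6-fold), Abat, the GABA transaminase gene (17.2-fold), and the splicing factor gene Rbfox1 (15.2-fold).

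Histone marks and Rpc155 were compared as measurements from other antibodies. H3K27ac of the same condition lay under 33.1% of KCl-only (32.5 to 33.6) and 33.5% of untreated-only regions (33.0 to 34.0), but under 69.1% and 67.3% of shared ones. With only regions of −log10 q of 5 or more these became 58.6% for KCl-only and 45.9% for untreated-only regions. H3K4me1, a mark of enhancers, lay under 56.8% of KCl-only, 71.9% of untreated-only and 83.8% and 78.7% of shared regions. Rpc155 overlapped 1.17% of KCl-only and 4.69% of untreated-only regions, and 10.4% and 25.9% of shared ones, in lists of 4233 Rpc155 regions with KCl and 12511 untreated.

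For each of 20665 protein-coding genes the share of its length under Gtf3c1 regions was computed. This covered share was at least 20 percentage points higher with KCl in 412 genes (1.99%) and at least 20 points lower in 179 (0.866%). Both sets were short genes, with median lengths of 3320 and 2364 bp against 17490 bp for all genes, and 298 and 159 of them were in the shortest 25% of genes. A gene of this size can lie under 1 region, so the threshold is reached more easily there. At least 1 region was present in 11540 genes untreated and 11387 with KCl. It was listed with KCl alone for 1093 genes (5.29%) and untreated alone for 1246 (6.03%).

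**Figure D2:**
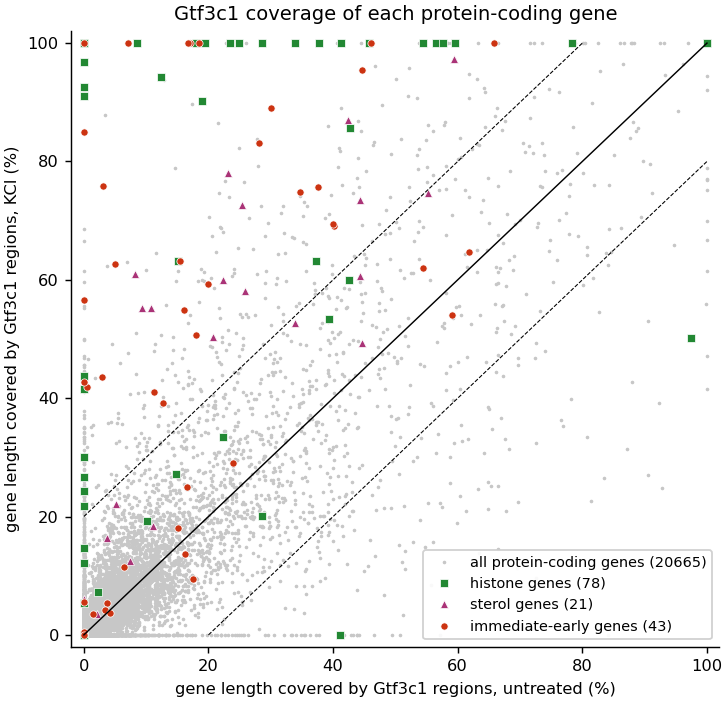
Share of each protein-coding gene's length under Gtf3c1 regions (%), untreated on the horizontal and KCl on the vertical axis, 1 point per gene. The solid line marks equality and the dashed lines 20 points; 27 of 43 immediate-early and 39 of 78 histone genes lie above the upper dashed line, as do 11 of 21 sterol genes grouped after their values were seen.

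Among genes of 2 kb or longer, 5 of the 10 largest gains were at listed immediate-early genes and 5 at others; some shorter histone genes, described further on, gained as much. Btg2 (chr1:134074865-134079155) was covered at 0% of its length untreated and at all of it with KCl. Fosb was covered at 7.07% and then fully, Egr1 at 16.6% and then fully, and Fos at 18.5% and then fully. The stress-response gene Gadd45b was at 0% and 85.0%. Nop53, a ribosome biogenesis gene that also holds a small nucleolar RNA gene, was at 0% and 92.1%, and Leng8 at 3.43% and 87.9%. Acd, a telomere shelterin gene, went with its overlapping neighbours Carmil2 and Pard6a (18.1% untreated, all of Acd with KCl), so the region cannot be assigned to 1 of them. Fndc4 had 12.9% and 93.8%. Gmppb, an enzyme of GDP-mannose synthesis, had 22.8% untreated and its whole length with KCl, under a region that also covered part of Rnf123 and Amigo3.

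The 10 largest losses among these genes were smaller and included no listed immediate-early gene. Naxe, which repairs damaged NADPH, was covered at 92.8% untreated and 24.9% with KCl. Fkbpl had 72.6% and 9.68%. Aup1, a protein of lipid droplets that overlaps Htra2, had 66.4% and 14.5%, and Arl6ip4 63.5% and 13.8%. No region was left with KCl at Gp1bb, a platelet receptor gene that overlaps Septin5 (49.4% untreated), or at Zfp768 (46.6%). Gfer and Sco2, both of mitochondria, had 51.3% and 3.30%, and 67.7% and 21.0%. Sco2 overlaps Ncaph2 and Tymp. Fjx1 had 80.7% and 33.5%, and Pycard, an inflammasome adaptor gene, 55.6% and 8.50%.

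H3K27ac was wider with KCl at many genes of both sets. It covered a share higher by 20 points or more with KCl in 602 of all genes (2.91%) and in 157 of the 412 genes with the Gtf3c1 gain (38.1%, 33.4 to 43.0). It did so in 45 of the 179 genes with the Gtf3c1 loss (25.1%, 18.97 to 32.16) and in 400 of the 20074 others. Fewer genes had a lower H3K27ac share by 20 points, 2 of the gained and 5 of the lost genes. So genes of both sets, which are short, more often had the H3K27ac gain than the rest. The part of gene length in this was not tested.

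Immediate-early genes had wider Gtf3c1 coverage with KCl. Of the 43 listed, 27 had a covered share higher by at least 20 points and none a share lower by as much, beside 1.99% and 0.866% of all genes. The median covered share was 16.0% untreated and 56.6% with KCl, against 0.643% and 0.503% over all protein-coding genes. Their median length was 6297 bp. The genes held 14 untreated-only and 92 KCl-only regions, beside 23920 and 23449 over all protein-coding genes. Of the 92, 39 lay in the long gene Homer1 and 10 in Fosl2. H3K27ac covered a median of 26.3% and 52.6% of them.

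Among the 25 transcription factor genes, 19 passed the threshold. In the AP-1 family, Fosl2 had 3.15% and 75.9%, Jun 44.6% and 95.5%, and Junb 17.0% and its whole length. The zinc finger gene Egr3 had 5.04% and 62.7%, Egr2 11.2% and 41.0%, and Egr4 0% and 56.6%. The orphan nuclear receptor genes Nr4a1, Nr4a2 and Nr4a3 had 15.5% and 63.2%, 16.0% and 54.8%, and 30.0% and 89.0%. Npas4, a neuron-specific factor, had 37.6% and 75.6%, and Srf 34.7% and 74.9%. Ier2, Ier5, Klf4, Maff and Per1 also passed, as did Fos, Fosb and Egr1 above.

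The factor genes below the threshold were Atf3 (0% and 0.430%), Bhlhe40 (3.70% and 5.30%), Csrnp1 (3.42% and 4.15%), Crem (1.52% and 3.56%), Klf10 (16.3% and 13.6%) and Klf6 (59.1% and 54.1%). Klf6 had the highest untreated share of the 25 genes.

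Of the 18 effector genes, 8 passed. Besides Btg2 and Gadd45b these were Gadd45g, the kinase gene Sik1 (28.1% and 83.0%), Dusp1 (65.9%, then fully), the matricellular protein gene Ccn1 (19.9% and 59.3%), Amigo3 and Homer1. Other phosphatase genes stayed below it, Dusp4 with 16.6% and 24.9%, Dusp5 with 0% and 5.57%, and Dusp6 with 54.5% and 61.9%. Arc, a postsynaptic protein gene, had 6.42% and 11.4%, although H3K27ac covered 17.0% and 46.6% of it. Zfp36 had no Gtf3c1 region in either list, with H3K27ac at 6.67% and 39.4%. Pim1 (17.5% and 9.44%) and Sgk1 (4.24% and 3.73%) had lower shares.

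**Figure D3:**
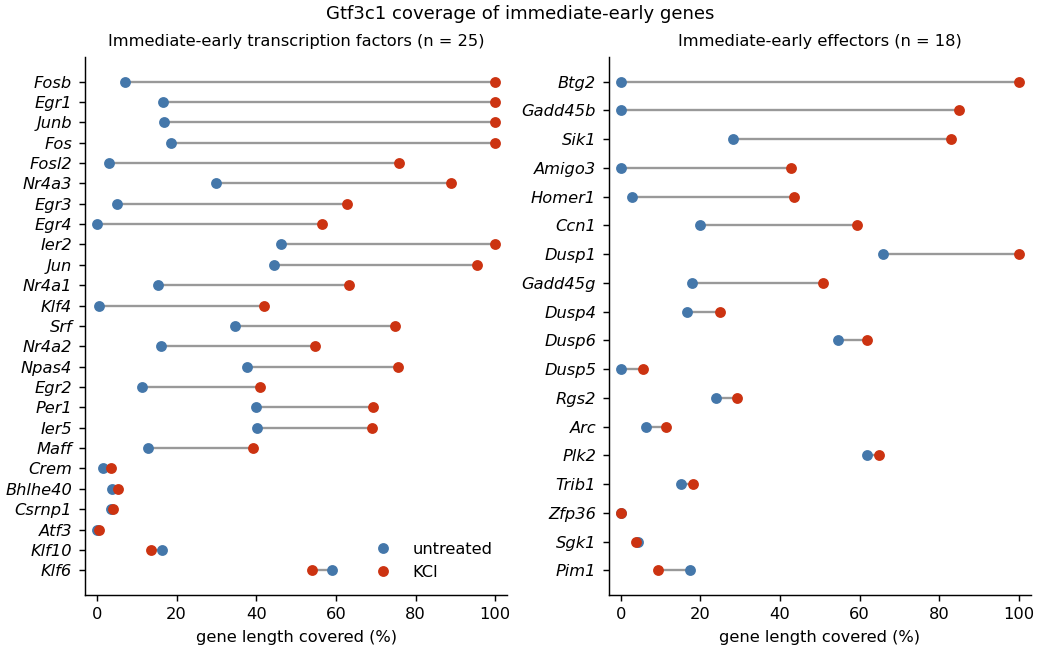
Share of gene length under Gtf3c1 regions (%) for 25 immediate-early transcription factor genes and 18 effector genes, untreated and KCl, 1 value per gene and condition. Fosb, Egr1, Junb, Fos, Ier2, Btg2 and Dusp1 reach 100% with KCl, while Zfp36 stays at 0% and Klf6, Klf10, Sgk1 and Pim1 lie lower with KCl.

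Homer1, the postsynaptic scaffold gene, was the long gene of this group (chr13:93303757-93405129). It had 0 untreated-only and 39 KCl-only regions, and its covered share was 2.92% untreated and 43.6% with KCl. The KCl-only summits lay between 11.01 and 97.73 kb from its start, 25 in the first 50% of the gene and 14 in the last.

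Coverage along the genes was wider over the whole transcribed length, not at the start alone. In 31 immediate-early genes of at least 2 kb with known strand, the first 5% of the gene was covered at a mean of 39.7% untreated and 77.9% with KCl. Around the middle (45 to 55%) it was 27.5% and 54.8%, and in the last 5% 7.23% and 28.3%. The 500 bases after the end had 18.8% and 45.4%, and beyond 4.5 kb after the end both were under 2%. Over all 14542 such genes the first 5% had 19.8% and 23.1% and the last 5% 2.41% and 2.22%.

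**Figure D4:**
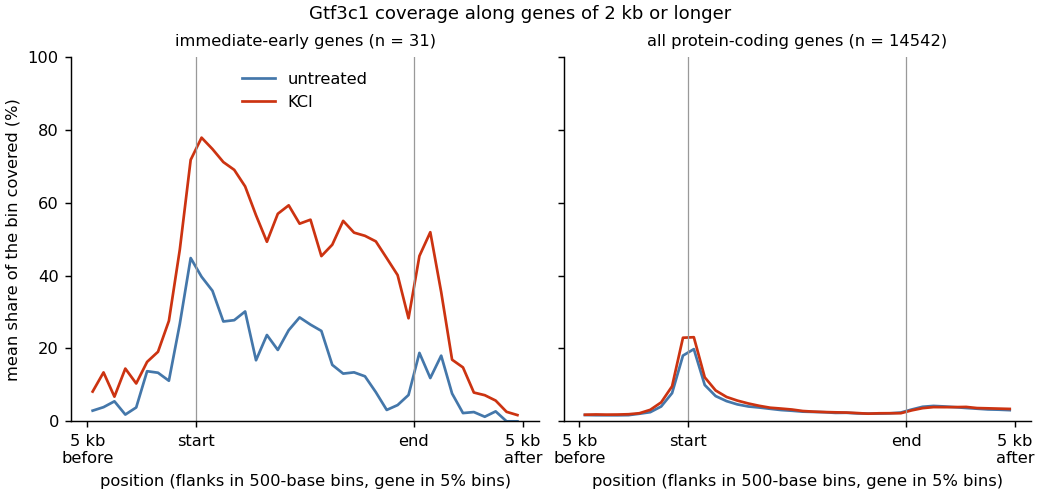
Mean share of each bin under Gtf3c1 regions (%) from 5 kb before the gene start to 5 kb after its end, for 31 immediate-early genes and all 14542 genes of at least 2 kb with known strand. The KCl line lies above the untreated line along the immediate-early genes, from 77.9% against 39.7% in the first bin to 28.3% against 7.23% in the last, while the lines of all genes nearly coincide beyond the start.

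Of the 20 delayed activity-regulated genes none passed the threshold upwards, which is near the 1.99% of all genes. The median covered share was 7.20% untreated and 6.42% with KCl. Bdnf, the neurotrophin gene, had 5.72% and 9.09%, and the secreted peptide genes Vgf and Scg2 had 47.0% and 62.7%, and 8.67% and 20.3%. Rgs4, a regulator of G protein signalling, was lower by more than 20 points (39.9% and 15.8%). In the 13 delayed genes that could be aligned by start and end, the first 5% of the gene was covered at 25.3% untreated and 43.7% with KCl, and the middle at 19.3% and 11.4%. The difference between the early and the delayed list was not tested.

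Synaptic and signalling genes held few genes above the threshold, as did all genes (1.99%). Those that carry calcium signals to CREB held 2 of 24, the deacetylase gene Hdac5 (24.9% and 47.1%) and the transcription factor gene Mef2d (16.7% and 42.2%). Of 18 presynaptic genes Vamp2, a vesicle fusion protein gene, passed with 63.1% and 94.0%. None of 17 genes of glutamate receptors and postsynaptic scaffolds passed, with Dlg4 nearest (17.5% and 34.7%). Potassium channel genes (Kcn) had higher shares in 14 and lower ones in 52 of 92 genes, with medians of 1.20% and 0.536%, beside 6146 higher and 6468 lower of all 20665 genes. Olfactory receptor genes, silent in this tissue, had a region in 3 of 1104 untreated and in none with KCl.

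Genes of the RNA polymerase III machinery itself had a region in 31 of 31 cases untreated and 26 with KCl, beside 55.8% and 55.1% of all protein-coding genes. Of all protein-coding genes, 6.03% had a region untreated alone. The machinery genes without one with KCl were Gtf3c3, Gtf3c5, Gtf3a, Brf2 and Bdp1, of which Brf2 had the largest untreated share (7.90%). The covered share was higher in 13 and lower in 18, with medians of 3.39% and 3.05%, beside 6146 higher and 6468 lower of all 20665 genes. None of the 31, and none of 21 aminoacyl-tRNA synthetase genes, passed the threshold either way, which is near the share of all genes (1.99% higher and 0.866% lower). The tRNA genes themselves held a region in 219 of 391 untreated (56.0%, 50.9 to 61.0) and 222 with KCl (56.8%, 51.7 to 61.8), and 212 had one in both. Long noncoding RNA genes had a region less often with KCl, 3229 against 3898 of 12408. Ribosomal protein genes, which polymerase II transcribes, had 13 of 81 above the threshold and 4 below it (among them Rpl12, Rps21 and Rps27a), with medians of 42.3% and 46.6%. Their median length was 3183 bp, and the shortest 25% of all genes, 5167 in number, held 298 higher and 159 lower.

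Histone genes had a higher share by the threshold in 39 of 78 cases and a lower one in 2, beside 1.99% and 0.866% of all genes. Their median covered share was 0% untreated and 74.4% with KCl. The median length was 503 bp, so 1 region can cover a whole gene, and neighbouring genes may lie under the same one. The neighbours H2bc13 and H2ac13, for example, had the same KCl fold enrichment (6.099), as did H2ac8 and H2bc8 (7.535). These counts are therefore of genes and not of separate regions. The 53 genes of the chromosome 13 clusters held 32 of the gains, with medians of 0% and 94.3%. H2bc13, H1f4 and H2bc9 had 0% untreated and were fully covered with KCl, and H3c4 had 0% and 96.8%. H4c6 (97.4% and 50.1%) and H3c8 (41.1% and 0%) were the losses. H3K27ac covered a median of 47.9% of the length of the 78 genes untreated and all of it with KCl. Many of these genes are near-identical copies, so reads may be split among them.

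MicroRNA loci were among the widest regions in either list. Of 919 hairpins, 114 lay under a region untreated and 116 with KCl, 73 in both, 43 with KCl alone and 41 untreated alone. Of protein-coding genes, which are longer, 5.29% had a region with KCl alone and 6.03% untreated alone. Over the 1136 microRNA genes of the gene table, which unlike the hairpins include those of miR-124, the counts were 129 and 140, with 53 under KCl alone and 42 untreated alone. The mature sequences of 6 chosen after their region widths were seen are printed from RefSeq (GRCm38.p6) with the seed, bases 2 to 8, in capitals, and the first 2 share 1 seed.
miR-132-3p: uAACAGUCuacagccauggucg
miR-212-3p: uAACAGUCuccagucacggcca
miR-22-3p: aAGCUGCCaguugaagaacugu
miR-128-3p: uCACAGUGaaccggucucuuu
miR-9-5p: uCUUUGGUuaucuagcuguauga
miR-137-3p: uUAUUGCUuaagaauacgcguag

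Mir132 and Mir212, which lie side by side and are known CREB targets, were under 1 region of 2409 bp untreated (5.37-fold) and 10259 bp with KCl (13.6-fold, chr11:75171285-75181543). The KCl region met 6 untreated regions of together 5025 bp and lay also over the protein-coding genes Ovca2 and Dph1. Mir22 was under 217 bp untreated (2.94-fold) and 3095 bp with KCl (13.6-fold). Mir128-2 had 425 and 3349 bp, while Mir128-1, another gene of miR-128, lay under no region in either list. All 3 genes of miR-9, a neural microRNA, had wider regions with KCl, 2626 and 4834 bp at Mir9-1, 1560 and 3026 bp at Mir9-2 and 2447 and 3172 bp at Mir9-3. The region over Mir137 was wider untreated, with 5605 bp against 1857 bp. Mir124a-3, a locus of miR-124 besides Mir124a-1 described above, had 5634 bp untreated and 5575 bp with KCl.

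KCl-only regions were concentrated in fewer genes than untreated-only ones. They lay in 6680 protein-coding genes, of which 527 held 50% of them, while 868 genes held 50% of the untreated-only regions. The 100 genes with most regions held 24.9% of the KCl-only and 14.9% of the untreated-only regions. At least 50 KCl-only regions were found in 42 genes and at least 50 untreated-only ones in 12. Per Mb, the longest 25% of genes had 22.1 KCl-only and 23.4 untreated-only regions and the shortest 25% had 44.0 and 40.8, so long genes as a class held no excess of KCl-only regions. The genes named next were chosen for their counts.

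Tenm2, a synaptic adhesion gene of 1230398 bp, had most, with 202 KCl-only and 54 untreated-only regions and covered shares of 4.28% untreated and 8.70% with KCl. The RNA-binding protein gene Celf2 had 165 and 61, the semaphorin receptor gene Plxna4 145 and 39, and the phosphatase gene Ptprd 142 and 49. The ankyrin gene Ank2 had 133 and 44, and the transcription factor gene Tcf4 81 and 22. Over Celf2 the covered share was 16.3% and 27.8%, and over Tcf4 18.2% and 30.4%. H3K27ac covered less with KCl over Celf2 (40.2% and 36.7%) and Tenm2 (8.11% and 5.97%), and more over Tcf4 (48.1% and 60.8%) and Ank2 (9.37% and 10.1%).

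In other long genes untreated-only regions were in excess. Ctnna2, an alpha-catenin gene, had 41 untreated-only and 19 KCl-only regions, and Cdh13, a cadherin gene, 41 and 22. Rgs6 had 26 and 7, Tmem117 23 and 4, and Gabbr2, a GABA-B receptor gene, 27 and 10.

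**Figure D5:**
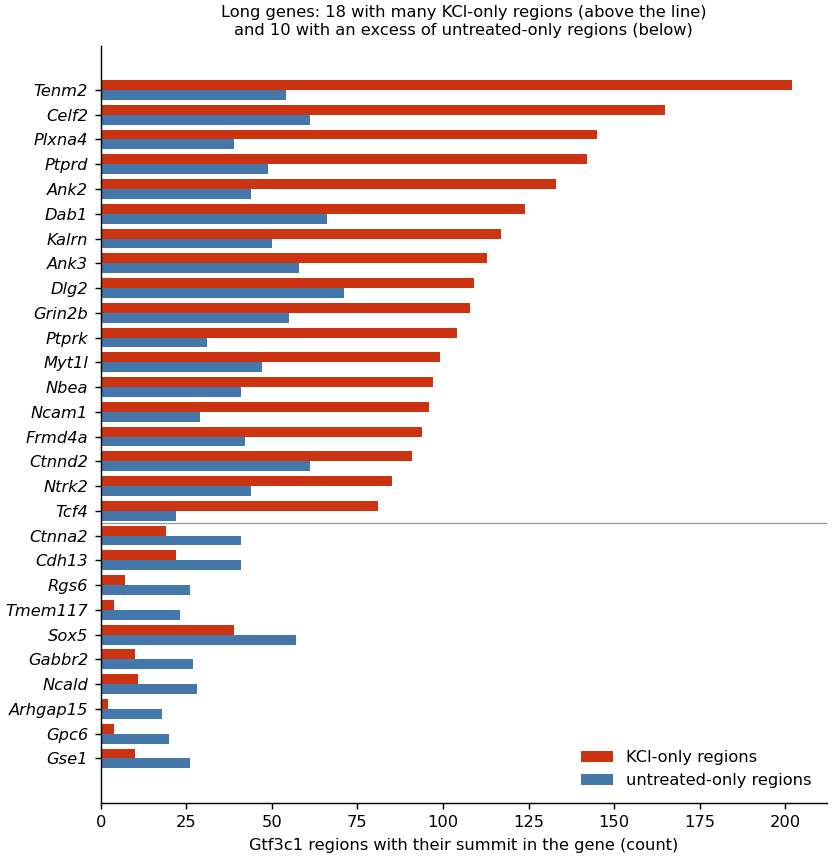
Number of KCl-only and untreated-only Gtf3c1 regions with their summit in a gene, for 18 protein-coding genes with many KCl-only regions and 10 with an excess of untreated-only regions. Tenm2 leads with 202 against 54, and Ctnna2 shows the reverse with 19 against 41.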

How the data were processed

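ChIP-seq region lists of 4 antibodies in untreated and KCl-treated neurons were used, 1 per antibody and condition. Alignment with Bowtie2 to GRCm38/mm10 and MACS2 regions are named, per the submitters' processing notes. Tool versions and any pooling of the 3 replicates were not given in the sources used here. Per region, the deposited lists give a position, summit offset, score, fold enrichment (a ratio over local background), −log10 p and −log10 q, all the authors' values and not adjusted between libraries. The lowest deposited −log10 q was 1.30 untreated and 1.31 with KCl, so 0.05 was taken as the authors' threshold. The number of unused columns of per-sample values was 0. The input libraries were not analysed here.

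Overlaps, widths and covered shares on chromosomes 1 to 19 were computed with Python 3.11.15, numpy 2.4.6 and pandas 2.3.3, after a check on simulated regions. Genes, starts and sequences came from RefSeq (GRCm38.p6); strand was known for 79.6% of the protein-coding genes. Intervals are exact binomial (scipy 1.17.1, 95%). Genes named are members of 17 lists (253 of 254 symbols found), the 10 largest gains and losses of covered share among genes of 2 kb or longer without predicted models, the 10 widest and 10 strongest condition-only regions, and gene classes by biotype and prefix. Long genes with most condition-only regions and the microRNA genes were chosen after their values were seen. Some named genes and regions are not reported here. Members and lists were chosen with earlier results of these data known. No genome was used here, so the planned motif search around summits was replaced by promoter windows. Alternatives were a stricter q, equal list lengths, other overlap rules and other thresholds.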

Additional observations from a re-analysis of the deposited data

How the results depend on the processing

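With 1 list per condition no replicate could be left out, and no paired analysis was possible because the result comes from no test. Only regions of −log10 q of 5 or more (32552 untreated, 25128 KCl) gave a shared share of 46.7% for untreated and 59.7% for KCl regions, a length ratio of 0.926, H3K27ac under 58.6% of KCl-only and 45.9% of untreated-only regions and a median summit distance of 64 bp. With the untreated list reduced to 57653 regions these were 49.0%, 48.3%, 1.02, 34.5%, 35.2% and 101 bp, so the shared shares changed order and the length ratio crossed 1. Under both settings the lists were cut before overlaps were called, so a region shared in the full lists can count as condition-only there. Requiring 50% of the shorter region to be shared, between the Gtf3c1 lists and with H3K27ac, gave 41.7%, 46.5%, 31.3% and 27.3%, with 88 bp. Summits within 200 bp, again in both overlaps, gave 31.6%, 36.3%, 10.9% and 10.5%. With these rules between the Gtf3c1 lists alone (added after seeing the data) H3K27ac lay under 36.0% and 35.4%, and 44.3% and 42.2%. At a threshold of 10 points, 875 genes had a higher and 429 a lower covered share, and at 30 points 233 and 83. The stricter q and the equal lengths gave 418 and 446 higher and 173 and 164 lower genes. Immediate-early genes above the threshold numbered 23 to 27 over the 4 alternatives, histone genes 34 to 45 and sterol genes 9 to 16, the last 2 groups also added after seeing the data. The causes were not tested. The lists give no depth, so a region missing from one may lie just under the authors' threshold there.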

Other observations

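Genes of sterol synthesis and transport had wider Gtf3c1 coverage with KCl. The group of 21 was put together after Cyp51 and Stard4 had been seen among the genes with gains, so its counts are a description. All 21 had a higher covered share with KCl, beside 6146 of all 20665 protein-coding genes. It was higher by at least 20 points in 11, beside 1.99% of all. The median was 22.4% untreated and 55.2% with KCl. H3K27ac covered a median of 14.9% and 29.0% of these genes, and 4 of 21 had a share of it higher by 20 points, beside 2.91% of all. The 21 genes held 15 untreated-only and 84 KCl-only regions, beside 23920 and 23449 over all protein-coding genes. Srebf2 held 5 of the 15 and 26 of the 84.

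Along the pathway, Hmgcs1 had 44.4% and 73.5% of its length covered, Idi1 25.9% and 58.1%, and Fdps 59.3% and 97.3%. Sqle, which makes squalene epoxide, had 25.4% and 72.6%, Lss, the lanosterol synthase gene, 9.31% and 55.2%, and Cyp51, the lanosterol demethylase gene, 23.1% and 78.1%. Stard4, a sterol transport gene, had 8.27% and 61.1%. Mvk (0% and 6.06%), Hsd17b7 (7.35% and 12.5%) and Scap, which escorts the regulator of these genes (2.18% and 3.48%), had small differences.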
